A study of Schmidtea mediterranea with 6 samples.

Results

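The lysyl oxidase family of the planarian *Schmidtea mediterranea* was described from its contigs (assembled transcripts) in tails of *hmcn-1(RNAi)* and control animals. Its members were the representative contigs of the study's table of matrix-associated genes, the matrisome, whose name or best human match contains LOX. They were 5 of the 299 representative contigs of that table and 5 of the 28742 contigs of the count table. The members are *loxl2* (dd_Smed_v6_10591_0_1), *loxl3* (dd_Smed_v6_11452_0_1), dd_7096 (dd_Smed_v6_7096_0_1, best human match LOXL2), dd_8864 (dd_Smed_v6_8864_0_1, LOXL4) and dd_13279 (dd_Smed_v6_13279_0_1, LOXL3). The family was selected on its name and on the log2 fold change of dd_7096 in this comparison, which was already known, so the members' differences are given as a description without a test.

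All animals were of the asexual strain CIW4 and were fed liver with dsRNA 4 times over 13 days. Control animals received dsRNA against *unc-22*, a *C. elegans* gene, and the others received dsRNA for *hmcn-1*, the gene of hemicentin-1, a large glycoprotein of the extracellular matrix. Poly(A) RNA was taken from tail fragments straight after amputation, with 5 tails pooled per library and 3 libraries per condition. A library is therefore a pool, and differences between single animals within it are not seen. That the pools of a condition came from separate cultures is not stated, so the spread between libraries may be in part technical.

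Lysyl oxidases are secreted, copper-dependent amine oxidases that convert lysines of collagen and elastin into aldehydes, from which the crosslinks between matrix fibres form. In mammals LOXL2, LOXL3 and LOXL4 carry scavenger receptor cysteine-rich (SRCR) domains before the catalytic domain, and LOXL2 acts on the collagen IV of basement membranes. Hemicentins are found at contacts between cells and basement membranes in other animals.

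The annotation divided the members into 2 kinds. A lysyl oxidase domain was annotated in 3 of the 5, namely *loxl2*, *loxl3* and dd_7096, each with SRCR-like domains before it. The other members, dd_8864 and dd_13279, carried SRCR-like domains with a zona pellucida domain, a module by which secreted proteins polymerise, and no annotated lysyl oxidase domain. For these 2 contigs the SRCR-like domains were the only annotated part shared with the other members. Which part of each protein matched the human protein was not looked up. The single-cell atlas used by the study assigned *loxl2* and dd_7096 to the intestine and dd_8864 to the pharynx, and gave no cell type for *loxl3* or dd_13279.

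The predicted proteins, of which up to 399 residues were at hand, divided the same way. The histidine-rich signature of the copper-binding site was found in 3 of 729 proteins of the study's tables, and these were *loxl2*, *loxl3* and dd_7096. *loxl2* and dd_7096 were identical at 41.5% of 357 aligned residues. *loxl3* was identical to *loxl2* at 40.5% of 215 residues and to dd_7096 at 42.7% of 206 residues. No identical run was longer than 11 residues in these 3 alignments. The nearest protein to dd_13279 among 724 that were not members was dd_8185, a contig with SRCR and zona pellucida domains whose best human match is DMBT1, a mucosal glycoprotein, at 39.3% of 377 residues. dd_13279 matched the other zona pellucida member, dd_8864, at 24.8% of 310 residues. The residues at hand can stop before the end of a protein, so a missing signature applies to this stretch only.

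Library totals ranged from 6374450 reads in control replicate 1 to 11887127 reads in *hmcn-1(RNAi)* replicate 3. The targeted gene *hmcn-1* was at 205 ± 0.967 CPM (counts scaled to library size; SD, n = 3) in control tails and at 17.9 ± 1.05 CPM in *hmcn-1(RNAi)* tails (log2 fold change -3.53, adjusted p = 7.39e-31, edgeR quasi-likelihood test with Benjamini-Hochberg adjustment), as the labels imply. Of the 5 posterior genes checked, *wntP-2*, *fz4-1*, *wnt11-1* and *wnt11-2* passed the filter on low counts, with a median log2 fold change of -0.15. None of the 4 had an adjusted p under 0.05 in edgeR, and 1 did with the replicate number as a block. Summed levels of the 5 lay between 96.2 and 123 CPM in control and between 93.5 and 104 CPM in *hmcn-1(RNAi)* libraries. *wnt1*, a gene of the posterior pole, had 1 to 6 reads per library. The 5 anterior genes summed to between 7.11 and 9.71 CPM. At an adjusted p under 0.05, the threshold for a call, 1.13% of the 15333 contigs tested were called in either direction, 0.515% higher and 0.613% lower in *hmcn-1(RNAi)* tails. The number called, 173, was 75 when control replicate 3 was left out. It was 88 when *hmcn-1(RNAi)* replicate 1 was left out and 91 for replicate 3 of that condition. Control replicate 1 stood apart from the other control libraries in its counts. Contig lengths were not at hand, so levels of different contigs are not ranked against each other.

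Of the 5 members, dd_7096 was higher in *hmcn-1(RNAi)* tails by about 1.5-fold, and the other 4 had overlapping libraries. All 5 passed the filter on low counts. dd_7096 was the 1 member called higher and none was called lower, beside the 0.515% and 0.613% of all contigs. It was also the 1 member with all 3 *hmcn-1(RNAi)* libraries above all 3 control libraries, which was so for 7.81% of all contigs, beside 7.78% with all 3 below and 15.6% with no overlap in either direction. These counts hold the value that the choice of the family used and carry no weight as a test. In RNA from whole tails, fewer cells of a type and less RNA per cell cannot be told apart.

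dd_7096, the intestine-assigned contig with a lysyl oxidase domain, was at 24.8, 24.2 and 24.0 CPM in control replicates 1 to 3. It was at 37.1, 36.2 and 37.8 CPM in *hmcn-1(RNAi)* replicates 1 to 3. Every *hmcn-1(RNAi)* library lay above every control library, and the libraries of 1 condition lay close together. The underlying counts were 154, 207 and 198 reads in control and 317, 305 and 447 reads in *hmcn-1(RNAi)* libraries. The mean level went from 24.4 ± 0.407 to 37.0 ± 0.832 CPM over 3 libraries each, which is 0.61 on the log2 scale with a standard error of 0.0815, or 1.52-fold (1.36 to 1.70 at 2 standard errors). The 95% exact Poisson interval, which covers counting error only, reached 29.0 CPM in the highest control library and began at 32.2 CPM in *hmcn-1(RNAi)* replicate 2. These intervals did not meet, but the family was chosen with this difference known, so the gap carries no weight as a test. The spread between libraries was 1.67% of the mean in control and 2.25% in *hmcn-1(RNAi)* tails, below the 4.73% to 8.06% that counting error alone gives at these counts.

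**Figure D1:**
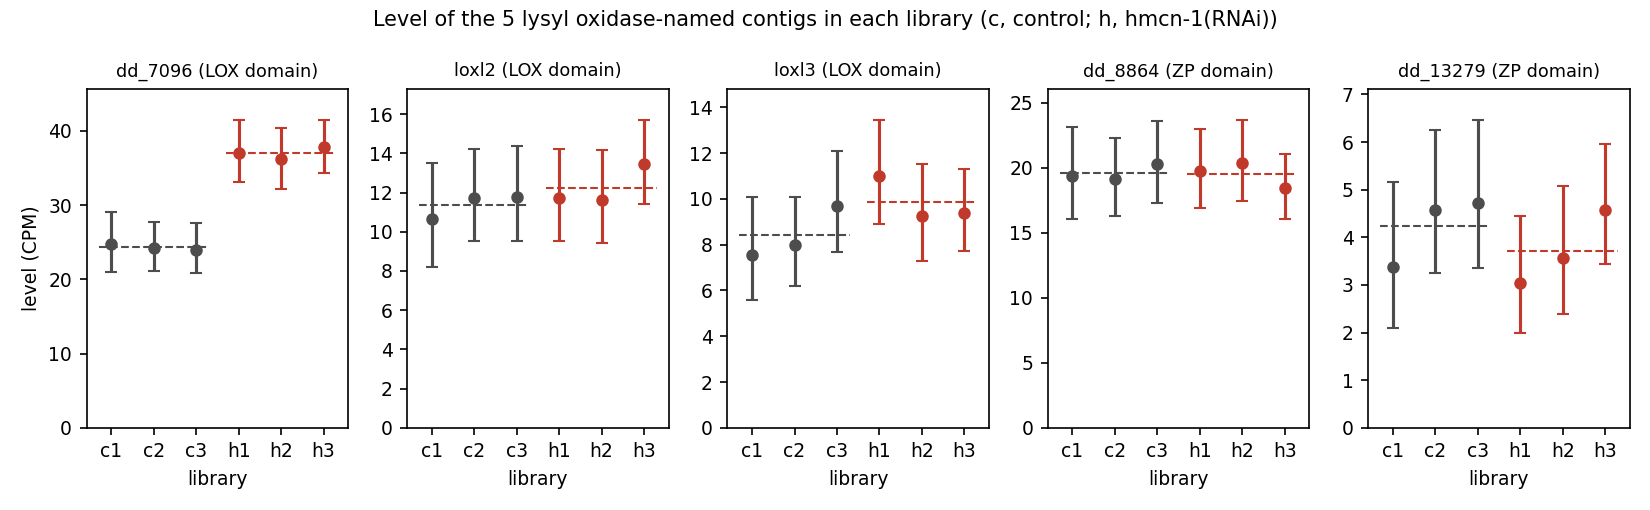
Level of each of the 5 lysyl oxidase-named contigs in CPM (y axis, from 0 and scaled per panel) in the 6 libraries (x axis; c, control, h, *hmcn-1(RNAi)*). Points are libraries, bars are 95% exact Poisson intervals of the count and dashed lines are the means of 3 libraries; in dd_7096 the control points lie between 24.0 and 24.8 CPM and the *hmcn-1(RNAi)* points between 36.2 and 37.8 CPM, whereas the conditions overlap in the other 4 panels.

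*loxl2*, the reciprocal best match of mammalian LOXL2, was at 10.6, 11.7 and 11.8 CPM in control libraries and at 11.7, 11.6 and 13.4 CPM in *hmcn-1(RNAi)* libraries. Only *hmcn-1(RNAi)* replicate 3 lay above all control libraries, and the conditions overlapped. The means were 11.4 ± 0.640 and 12.3 ± 1.04 CPM, with a log2 fold change of 0.11 (standard error 0.126), or 1.08-fold (0.907 to 1.29 at 2 standard errors). *loxl2* counts were between 66 and 159 reads per library. The interval of *loxl2* held no change.

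*loxl3*, the third member with a lysyl oxidase domain, was at 7.57, 7.96 and 9.70 CPM in control libraries and at 10.995, 9.25 and 9.39 CPM in *hmcn-1(RNAi)* libraries. Control replicate 3 lay above *hmcn-1(RNAi)* replicates 2 and 3, so the conditions overlapped. Its means were 8.41 ± 1.13 and 9.88 ± 0.971 CPM, with a log2 fold change of 0.22 (standard error 0.145), or 1.16-fold (0.9503 to 1.42 at 2 standard errors). With 47 to 111 reads per library, a change of that size was not separable from none at this depth.

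The libraries of both zona pellucida members overlapped between conditions. dd_8864, the pharynx-assigned contig, was at 19.3, 19.1 and 20.3 CPM in control libraries and at 19.8, 20.4 and 18.4 CPM in *hmcn-1(RNAi)* libraries. The *hmcn-1(RNAi)* libraries of dd_8864 held both its highest and its lowest value, and the log2 fold change was -0.0079 (standard error 0.0995). The sign of this value turned to 0.018 without control replicate 3 and to 0.037 without *hmcn-1(RNAi)* replicate 3. dd_13279 was at 3.38, 4.57 and 4.73 CPM in control libraries and at 3.04, 3.56 and 4.57 CPM in *hmcn-1(RNAi)* libraries. Its log2 fold change was -0.18 (standard error 0.220, 0.652- to 1.2003-fold at 2 standard errors), on 21 to 54 reads per library, the fewest of the family.

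Summed over the 3 contigs with a lysyl oxidase domain, the level was 43.0, 43.9 and 45.5 CPM in control and 59.8, 57.0 and 60.7 CPM in *hmcn-1(RNAi)* libraries. The mean sum went from 44.1 ± 1.25 to 59.1 ± 1.899 CPM, and dd_7096 alone accounted for 12.7 of the 15.01 CPM difference. *loxl2* and *loxl3* together went from 19.8 ± 1.64 to 22.1 ± 1.102 CPM. The 2 zona pellucida members together went from 23.8 ± 1.14 to 23.3 ± 0.605 CPM. Most of the difference in the summed level thus lay in 1 contig.

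The division of reads within the family does not depend on the scaling between libraries. dd_7096 held 57.7%, 55.2% and 52.8% of the reads of the 3 lysyl oxidase-domain contigs in control replicates 1 to 3, of 267, 375 and 375 reads. In *hmcn-1(RNAi)* replicates 1 to 3 it held 62.0%, 63.4% and 62.3% of 511, 481 and 717 reads. The shares of the conditions did not overlap and the mean rose by 7.37 percentage points, from 55.2% ± 2.44 to 62.6% ± 0.721 (SD, n = 3). The family was chosen with the rise of dd_7096 known, so its larger share follows from that choice and is only a description. The 95% Wilson intervals of single libraries did meet, from 51.7% to 63.5% in control replicate 1 and from 57.8% to 66.1% in *hmcn-1(RNAi)* replicate 1. The share of *loxl2* was 25.8% ± 0.979 in control and 20.7% ± 1.33 in *hmcn-1(RNAi)* tails, and that of *loxl3* was 19.0% ± 2.02 and 16.7% ± 1.52. Shares within a fixed sum move against each other, and the mean levels of *loxl2* and *loxl3* themselves were not below control. For each read of *loxl2* there were 2.04 to 2.33 reads of dd_7096 in control and 2.81 to 3.17 in *hmcn-1(RNAi)* libraries.

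**Figure D2:**
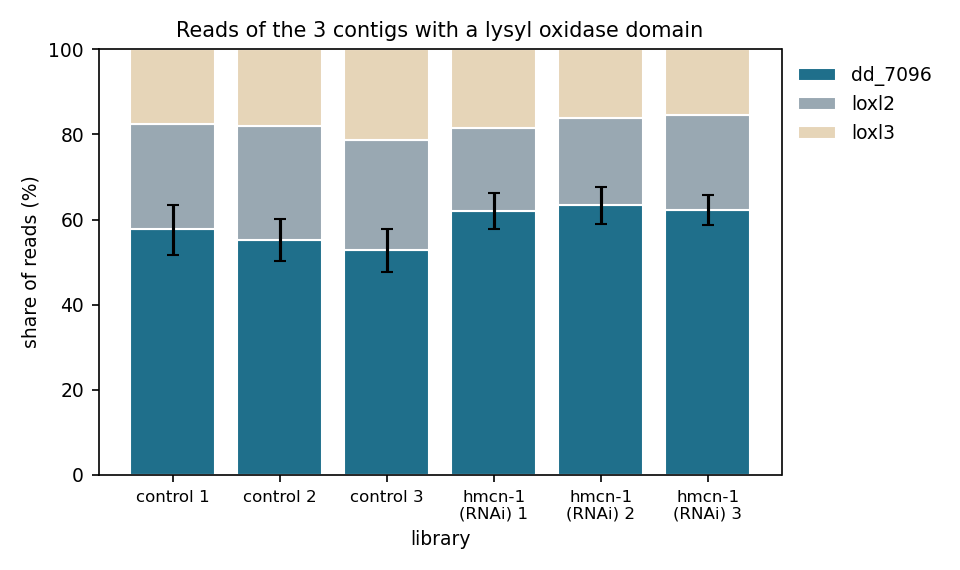
Share of the reads of the 3 contigs with a lysyl oxidase domain (y axis, percent) that each contig held in each of the 6 libraries (x axis). Stacked bars add up to the whole and error bars are 95% Wilson intervals of dd_7096, whose share is 52.8% to 57.7% in control and 62.0% to 63.4% in *hmcn-1(RNAi)* libraries.

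The family was chosen with the log2 fold change of dd_7096 known, so the rank of dd_7096 follows from the choice and is only a description. Among all contigs tested, 97.7% had a smaller absolute log2 fold change than dd_7096, and 208 contigs had a larger rise. Of 2965 contigs with a mean count within 1.5 times that of dd_7096, which was 271 reads, 22 including dd_7096 had an absolute log2 fold change of at least its size, and the median of the 2965 was 0.074. Of the other members, *loxl3* changed more than 80.3% of contigs, dd_13279 more than 74.0%, *loxl2* more than 56.7% and dd_8864 more than 4.81%. Contigs with few reads vary more in this measure, and dd_13279 and *loxl3* had the fewest.

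**Figure D3:**
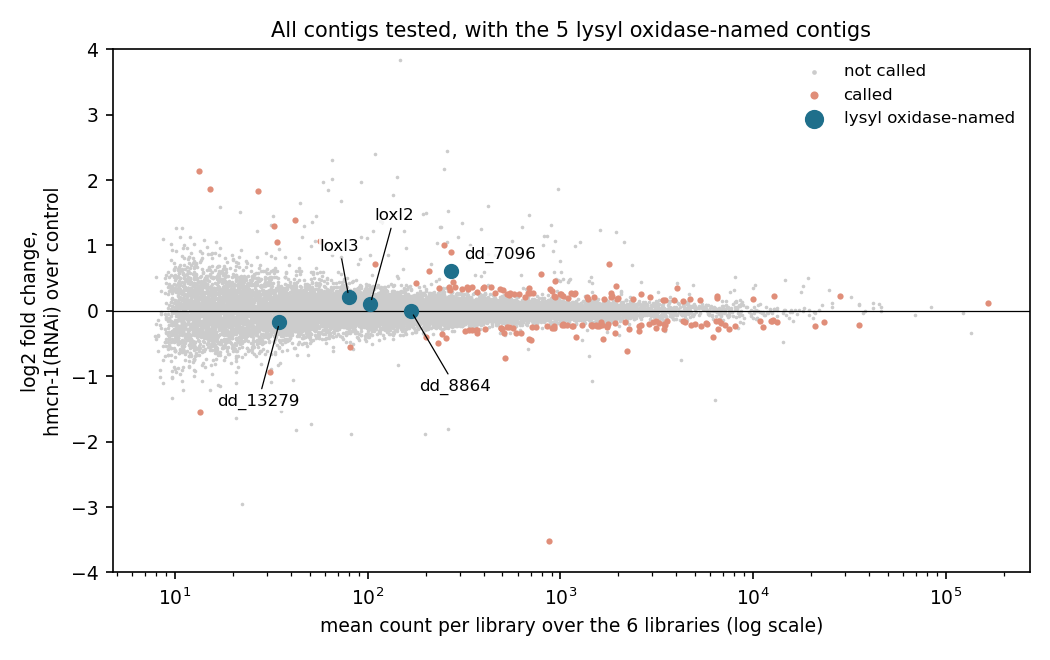
Log2 fold change of *hmcn-1(RNAi)* over control (y axis) against mean count per library (x axis, log scale) for the contigs tested. Grey points were not called, orange points had an adjusted p under 0.05 and the 5 lysyl oxidase-named contigs are in blue; dd_7096 lies at 0.61 and a mean of 271 reads, above most contigs of similar count, and the other 4 lie within the grey cloud.

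Because *loxl2* and dd_7096 are assigned to the intestine, other intestine markers were placed beside them. The 8 intestine markers are cathepsin-like proteases, the 3 laminin subunits of the basement membrane and 1 other contig, and all 8 had reads in every library. Their sum was 16472, 13798 and 15352 CPM in control and 15893, 15963 and 16188 CPM in *hmcn-1(RNAi)* libraries. Control replicate 1 was the highest of all, so the sums overlapped. None of the 8 was called by edgeR, DESeq2 or limma-voom, 3 had an unadjusted p under 0.05, and the median log2 fold change was 0.079, beside 0.000089 over all contigs tested. The share of all contigs at an unadjusted p under 0.05 was not at hand. Counts at that threshold, here and below, are therefore a description and not a result about a list. The largest of the 8 log2 fold changes was 0.15, in the laminin alpha subunit. A wider list held the 31 other contigs of the study's tables assigned to the intestine at any strength, without *loxl2* and dd_7096, and 30 of these were tested. Of the 30, 25 had a log2 fold change above 0 and the median was 0.086. All *hmcn-1(RNAi)* libraries lay above all control libraries in 8 of the 30, beside 7.81% of all contigs, and 11 had an unadjusted p under 0.05. *prss12* and dd_1144 were called higher by edgeR, beside 0.515% of all contigs, and DESeq2 without independent filtering and limma-voom each called 1 of the 30. The number called higher was 6 with no filter on low counts, and with a control library left out it was 5 for replicate 1, 1 for replicate 2 and 0 for replicate 3. dd_1144 kept its call in 2 of the 6 fits with a library left out and *prss12* in 5 of the 6. The highest log2 fold change of the 30 was 0.59, in dd_58, matching the collectin COLEC11, close to the 0.61 of dd_7096. dd_58 had a standard error of 0.538 and overlapping libraries, at 39.3, 20.97 and 49.5 CPM in control and 27.8, 79.5 and 57.1 CPM in *hmcn-1(RNAi)* tails. The part of intestinal RNA in the level of dd_7096 was not tested.

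Of the 6 pharynx markers, the cell type of dd_8864, 4 passed the filter on low counts. None of the 4 was called by edgeR, DESeq2 or limma-voom, 1 had an unadjusted p under 0.05, and their median log2 fold change was -0.048. They did not move together. *agrin*, dd_1886 and dd_2518 lay between -0.068 and -0.044, and dd_1071 at 0.50 (standard error 0.243) on 18 to 39 reads per library. All *hmcn-1(RNAi)* libraries of dd_1071 lay above all control libraries, beside 7.81% of all contigs. The 2 markers that did not pass, dd_7616 and dd_4476, had a mean below 1 CPM in both conditions, and dd_7616 had no read in any *hmcn-1(RNAi)* library. The 22 markers of cathepsin+ cells, a planarian class that includes pigment cells and glia, summed to between 13899 and 14570 CPM in control and between 14118 and 15118 CPM in *hmcn-1(RNAi)* libraries. None of the 22 was called by edgeR, 7 had an unadjusted p under 0.05, limma-voom called none and DESeq2 called 1 with independent filtering. With edgeR, 3 were called higher with no filter on low counts and 1 with the replicate number as a block. Also with edgeR, 1 was called higher when control replicate 1 was left out and 1 lower when control replicate 2 was. The 3 neural markers summed to between 158 and 201 CPM in control and between 136 and 145 CPM in *hmcn-1(RNAi)* libraries, without overlap. None of the 3 was called by edgeR and 1 had an unadjusted p under 0.05. dd_210, matching the secreted protein CRISPLD2, made up most of this difference, at 97.2 ± 17.6 CPM in control and 64.4 ± 4.30 CPM in *hmcn-1(RNAi)* tails (log2 fold change -0.59, adjusted p = 0.269, edgeR). DESeq2 and limma-voom each called 1 of the 3 lower. So did edgeR with no filter on low counts, and when control replicate 1 or control replicate 3 was left out. The 2 epidermal markers summed to between 1275 and 1300 CPM in control and between 1157 and 1248 CPM in *hmcn-1(RNAi)* libraries, also without overlap, and neither was called by edgeR, DESeq2 or limma-voom, with 1 at an unadjusted p under 0.05. Nearly all of this sum was dd_351, at 1271 ± 9.56 CPM in control and 1179 ± 46.6 CPM in *hmcn-1(RNAi)* tails. The other marker, dd_6028, was at 14.9 ± 3.62 and 13.6 ± 2.14 CPM with overlapping libraries. The part of these cell types in the levels of the members and of the collagens was not tested.

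**Figure D4:**
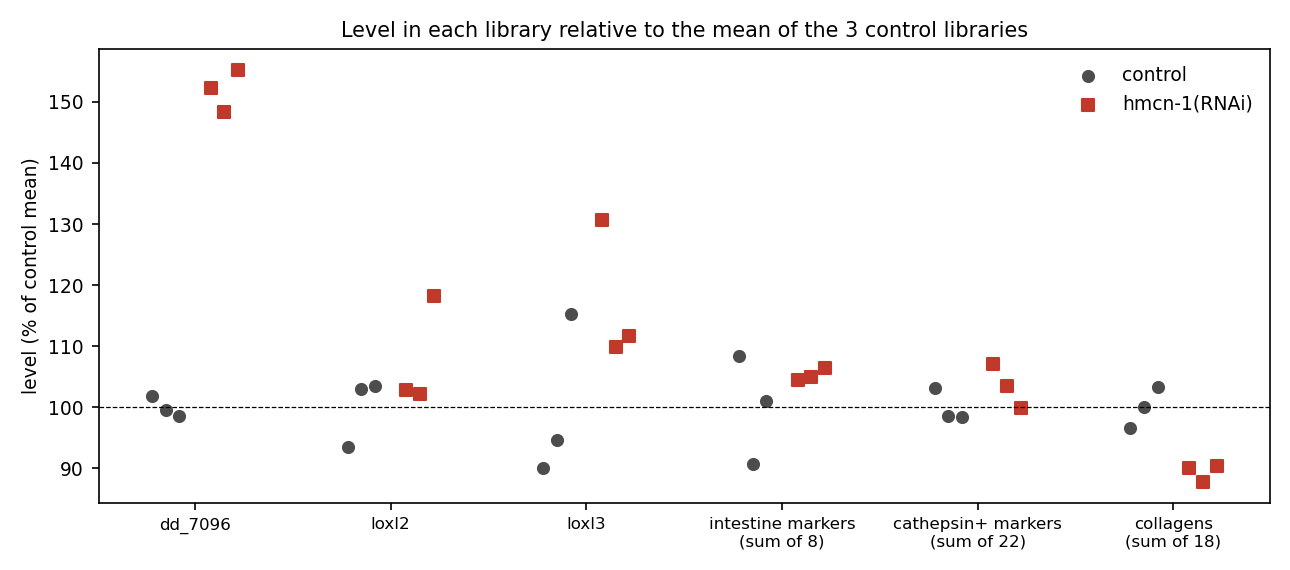
Level in each library as a percent of the mean of the 3 control libraries (y axis; axis does not start at 0) for dd_7096, *loxl2*, *loxl3* and the sums of 8 intestine markers, 22 cathepsin+ cell markers and 18 collagen contigs (x axis). Circles are control and squares are *hmcn-1(RNAi)* libraries; the squares lie apart from the circles above them in dd_7096 and below them in the collagens, and overlap with them in the others.

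Collagens are the substrates of lysyl oxidases, and 9 of their 18 contigs fell, beside 0.613% of all contigs called lower. None was called higher, and all 18 had log2 fold changes below 0, with a median of -0.16. The called contigs were *col4-1*, *col4-2*, *col4-3* and *col4-5*, which encode type IV collagens of basement membranes, and *colF-2*, *colF-3*, *colF-6*, *colF-8* and *colF-9*, which encode fibrillar collagens. *col4-2* went from 439 ± 6.10 to 379 ± 9.74 CPM (log2 fold change -0.21, Benjamini-Hochberg adjusted p = 0.00291, edgeR). *col4-5* went from 95.5 ± 4.397 to 80.6 ± 2.25 CPM (log2 fold change -0.25, adjusted p = 0.0169, edgeR). *colF-5* had the lowest log2 fold change, -0.26, with libraries further apart and an adjusted p of 0.0939 (edgeR), so it was not called. The contig of *colF-3* also carries the name *colF-4*. The number of collagens called lower was 4 by DESeq2 without independent filtering. With libraries left out it was 1 for control replicate 3, 4 for *hmcn-1(RNAi)* replicate 1 or 2 and 3 for replicate 3 of that condition, and *col4-2* was called in each. The same 9 contigs were those called among the 18 muscle markers, a list made up mostly of these collagens. Its other markers were not called by edgeR, with log2 fold changes of -0.17 in *plc*, 0.40 in *phmus-1*, -0.034 in *sparc* and -0.18 in dd_1693. The part of muscle RNA in the collagen levels was not tested.

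The 4 collagen hydroxylases act before lysyl oxidases. The prolyl 4-hydroxylases stabilise the collagen triple helix, and the lysyl hydroxylases of the PLOD type produce hydroxylysines that lysyl oxidases also use. *p2h4-1* was at 33.7 ± 3.61 CPM in control and 33.9 ± 2.31 CPM in *hmcn-1(RNAi)* tails. *p2h4-2* was at 54.1 ± 4.96 and 51.8 ± 3.02 CPM. *plod-1* was at 70.2 ± 4.57 and 62.1 ± 3.90 CPM (log2 fold change -0.18, adjusted p = 0.224, edgeR). *plod-2* was at 101 ± 4.91 and 96.5 ± 2.20 CPM. None of the 4 was called by edgeR, DESeq2 or limma-voom, 1 had an unadjusted p under 0.05, and the median log2 fold change was -0.060.

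Proteases of the BMP1 and tolloid class release the propeptides of procollagens and of lysyl oxidase in mammals. Among the 5 tolloid-like contigs, *tolloid* was at 103 ± 8.78 CPM in control and 96.1 ± 1.98 CPM in *hmcn-1(RNAi)* tails, and the log2 fold changes of dd_1967 and dd_3177 were -0.0070 and -0.028. dd_345 varied widely within conditions, at 230, 93.6 and 67.4 CPM in control and 298, 202 and 388 CPM in *hmcn-1(RNAi)* libraries. Control replicate 1 lay above *hmcn-1(RNAi)* replicate 2 in dd_345. dd_76 was at 2130, 1166 and 962 CPM in control and 1967, 1732 and 2186 CPM in *hmcn-1(RNAi)* libraries, and its conditions overlapped too. None of the 5 was called by edgeR, DESeq2 or limma-voom, and none had an unadjusted p under 0.05.

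Of the 4 other contigs with an SRCR domain, which the members share, 1 was called higher and none lower. *prss12*, an intestine-assigned contig matching the secreted serine protease neurotrypsin, went from 1354 ± 90.9 to 1585 ± 49.8 CPM (log2 fold change 0.23, Benjamini-Hochberg adjusted p = 0.00315, edgeR) and was the contig called. Without control replicate 3 its adjusted p was 0.0829 (edgeR). dd_1926, also intestine-assigned, differed by 0.12 on the log2 scale (adjusted p = 0.276, edgeR), and 2 of the 4 were called without control replicate 1. dd_351, assigned to the epidermis, differed by -0.11 on the log2 scale (adjusted p = 0.195, edgeR). dd_8185, the nearest protein to dd_13279, was at 20.4 ± 2.04 CPM in control and 19.7 ± 0.356 CPM in *hmcn-1(RNAi)* tails.

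**Figure D5:**
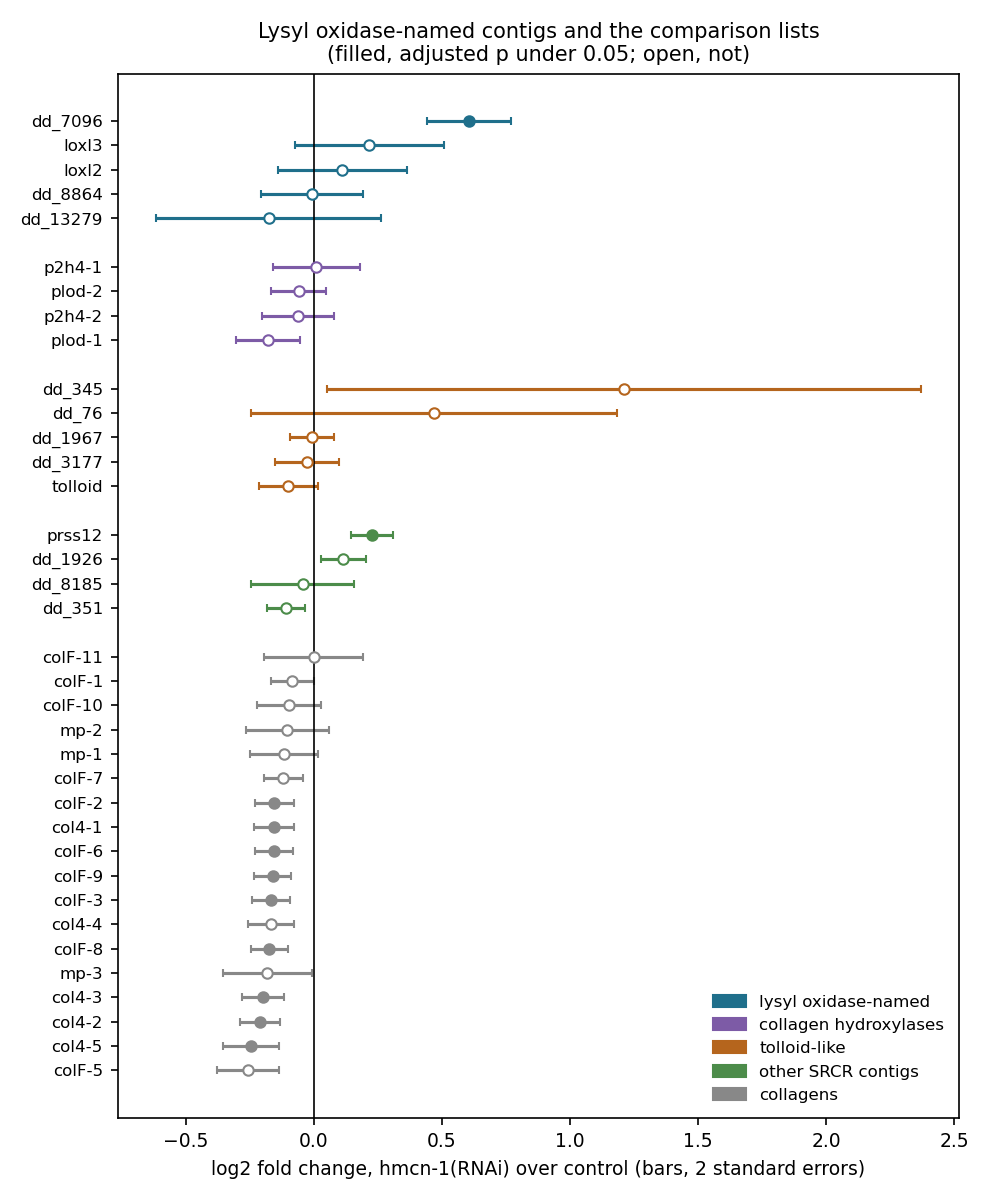
Log2 fold change of *hmcn-1(RNAi)* over control (x axis) for the 5 lysyl oxidase-named contigs and the contigs of the 4 comparison lists (y axis, coloured by list). Bars are 2 standard errors and filled points had an adjusted p under 0.05 (edgeR); dd_7096 lies at 0.61, dd_345 has the widest bar of those shown and all 18 collagen points lie below 0.

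The contigs whose levels over the 6 libraries were most like those of a member were taken from 347 other matrisome and secreted-protein contigs. With 3 libraries in each of 2 conditions, likeness to dd_7096 mostly follows the difference between conditions. The conditions overlapped in *loxl2* and *loxl3*, and a correlation over 6 libraries is uncertain, so all likeness is given as a description. Of the 347 contigs, 18 had a correlation of at least 0.8 with dd_7096, 5 with *loxl2* and 11 with *loxl3*. For dd_7096 the highest Pearson correlations of log2 CPM were with dd_329, matching the lysosomal protease cathepsin D (0.97), dd_2649, matching the microfibril protein fibrillin-2 (0.95), dd_11408, matching the urokinase plasminogen activator (0.94), *activin-1*, a TGF-beta family ligand (0.92), and dd_9465, matching epigen, an EGF receptor ligand (0.91). Of these, *activin-1* (log2 fold change 0.26, adjusted p = 0.0282, edgeR) and dd_2649 (log2 fold change 0.17, adjusted p = 0.0340, edgeR) were called higher, beside 0.515% of all contigs. These 5 contigs were picked for likeness to a contig that rose, so the calls follow from the choice and carry no weight as a test. For *loxl2* the highest were *fst*, encoding the activin-binding protein follistatin (0.94), dd_9829 (0.92), dd_9602 (0.87), dd_6929 (0.84) and dd_12707 (0.81), and none of these 5 was called. For *loxl3* they were dd_855 (0.94), dd_5439 (0.92), dd_1489 (0.89), dd_1748 (0.88) and dd_6736 (0.86), and none of these 5 was called. Log2 fold changes of dd_855, dd_1489 and dd_1748 were 0.96, 2.04 and 1.26, with wide standard errors of 0.55, 1.13 and 0.61. Those of dd_5439 and dd_6736 were 0.038 and 0.031. The 5 contigs named for each of the 3 members were 15 different contigs.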

How the data were processed

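Poly(A) RNA of 6 tail pools was sequenced after a stranded library kit. The authors mapped reads with bowtie 1.2.2 and samtools 1.9 to the dd_Smed_v6 transcriptome, joined isotigs of a contig and deposited raw counts per contig, without normalization. Whether counting used the strand, and what was done with reads that match several contigs, is not stated in the sources at hand. The authors' deposited DESeq2 table (mean normalized signal, log2 fold change with standard error, Wald score, p-value) was not used. Names, domains and cell types came from the study's supplementary tables.

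Counts were tested in R 4.3.3 with edgeR 4.0.16. Contigs passed filterByExpr at a minimum count of 10, totals were scaled by TMM, and condition alone entered a robust quasi-likelihood fit. P values were adjusted by Benjamini-Hochberg over 15333 contigs. The standard error is the log2 fold change over the root of F. CPM was computed on the TMM-scaled totals of the contigs tested. Cell type markers had an AUC above 0.8 in the atlas. Alternatives were RLE or upper-quartile factors, no filter, a filter of 100 counts in 3 libraries, DESeq2 1.42.0 (independent filtering on or off), limma-voom (limma 3.58.1), the replicate number as a block, and each library left out. The fits were tested on simulated data. Named are the members, *hmcn-1*, the hydroxylases, tolloid-like and other SRCR contigs, the collagens called or lowest, and for each member with a lysyl oxidase domain the 5 contigs of highest correlation with a mean count of at least 100. Members and lists were chosen with earlier results of these data known.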

Additional observations from a re-analysis of the deposited data

How the results depend on the processing

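dd_7096 had a log2 fold change of 0.60 to 0.61 under the other settings and 0.59 to 0.62 with a library left out, and was called in the 13 of 14 alternatives that gave it an adjusted p. These calls rest on the same libraries that the choice of the family used and carry no weight as a test. DESeq2 with independent filtering gave no adjusted p for any member, and the filter of 100 counts removed *loxl3* and dd_13279. With a library left out, the log2 fold change was 0.030 to 0.15 for *loxl2*, 0.14 to 0.34 for *loxl3*, -0.38 to -0.057 for dd_13279 and -0.040 to 0.037 for dd_8864, whose sign turned when control replicate 3 (0.018) or *hmcn-1(RNAi)* replicate 3 (0.037) was left out. The cause of these turns was not tested.

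Contigs called numbered 173, against 339 with no filter, 66 by DESeq2 without independent filtering, 73 by limma-voom and 75 to 255 with a library left out. Collagens called lower numbered 9, against 4 by DESeq2 without independent filtering and 1 to 12 with a library left out. Other SRCR contigs called higher were 0 to 2 with a library left out. Intestine markers called higher were 2 with no filter and 0 to 1 with a library left out. Same-numbered libraries deviated together little (correlations 0.026, 0.084 and 0.014), so the numbers were not taken as pairs. The replicate block raised the contigs called to 292. Control replicates 2 and 3 correlated best with the *hmcn-1(RNAi)* library of the same number, and control replicate 1 with *hmcn-1(RNAi)* replicate 3 (0.043). The low counts of dd_13279, 21 to 54 reads, limit what can be said of it.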

Other observations

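Matrix proteins are also crosslinked by enzymes other than lysyl oxidases, and the contigs of these were looked up after the values were seen. Peroxidasin forms sulfilimine bonds in collagen IV in animals, and transglutaminases join glutamine and lysine side chains. dd_9875, matching peroxidasin, was at 25.0, 27.1 and 25.2 CPM in control and 21.99, 22.4 and 21.99 CPM in *hmcn-1(RNAi)* libraries. All 3 *hmcn-1(RNAi)* libraries lay below the controls, but dd_9875 was not called (log2 fold change -0.22, adjusted p = 0.316, edgeR). dd_13558, matching the peroxidasin-like protein PXDNL, went from 5.40 ± 0.365 to 4.45 ± 0.808 CPM with overlapping libraries. dd_2602, matching the transglutaminase TGM5, was at 2.76 ± 0.456 and 3.04 ± 0.759 CPM. Of the 3 contigs tested none was called by edgeR, DESeq2 or limma-voom and 1 had an unadjusted p under 0.05. dd_30166, matching TGM2, had at most 1 read in a library and was not tested.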
